A study of Mus musculus with 8 samples.

Results

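Macrophages and neutrophils are the myeloid cells that 10 genes were used to follow in testis RNA, 6 of them macrophage genes (Csf1r, Cd68, Adgre1, Cd163, Mrc1 and Lyz2) and 4 of them neutrophil genes (Ltf, Lcn2, Ngp and S100a8). The genes were taken by name from the 24651 genes of the count tables, and the 2 groups were compared library by library. RNA-seq had been performed on 8 pairs of testes from postnatal day 12 mice of mixed strain background, 4 labelled wild type and 4 labelled Morc2b-/-. The Morc2b-/- allele lacks exon 2, which holds the coding region of the gene, in every cell of the animal. The series' design text calls the control animals Morc2b+/-, whereas the labels of the samples and the methods call them wild type. Each library came from a single animal's testes, so germ cells, Sertoli cells, interstitial cells, vessels and any attached tissue all contributed RNA.

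Macrophages settle in the testis before birth and lie in the interstitium between the tubules, beside the Leydig cells. Their survival depends on the receptor CSF1R, and their lysosomes and surface carry a stable set of proteins that mark them in most tissues. Neutrophils are short-lived cells that are made in the bone marrow and reach tissues through the blood. They load their granules in a fixed order during maturation, and most of the RNA for granule proteins is made in the marrow, before the cell enters the blood. The healthy testis holds few neutrophils.

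The central measurement was a contrast between the 2 groups. The 5 macrophage genes that could be measured varied by 1.40 to 1.81 times between the lowest and the highest of 8 libraries. None of them passed the test between the genotypes, which did not call the deleted gene Morc2b either. The 4 neutrophil genes were at 0 to 1.13 CPM (counts scaled to a common library size) in 6 libraries, and their sum was higher in 2, the libraries labelled wild type replicate 1 and Morc2b-/- replicate 3. These 2 libraries held the neutrophil genes in unequal proportions. Ltf, Lcn2 and S100a8 were above the other 6 libraries in both, and Ngp in only 1 of them. Ltf and Lcn2 were highest in wild type replicate 1, whereas Ngp and S100a8 were highest in the library labelled Morc2b-/- replicate 3.

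The libraries held 27144796 to 36941755 counts on transcripts. Morc2b itself, the gene that was deleted, gives a limited check of the labels. The 4 wild type libraries held 428, 443, 24 and 1272 of its counts, in the order of their replicate numbers, and the 4 Morc2b-/- libraries held 10, 10, 115 and 2. The library labelled wild type replicate 3, at 0.857 CPM, lay below the library labelled Morc2b-/- replicate 3, at 3.29 CPM. The groups thus overlapped, and the targeted gene did not bear out the labels of these 2 libraries. The paper reports that Morc2b starts at a low level in zygotene spermatocytes and rises through round spermatids. Wild type replicate 3 had the lowest wild type level of the germ cell gene Sycp3 (305 CPM, against 385 to 667 CPM). Morc2b-/- replicate 1 was lower still, at 267 CPM. The spermatid gene Tnp1 was highest in the library labelled Morc2b-/- replicate 3, at 111 CPM. Whether stage, spermatid RNA or wrong labels set the Morc2b counts was not tested. The Morc2b counts cover the whole transcript, not only the deleted exon. The mean was 17.2 ± 16.5 CPM in wild type and 0.989 ± 1.54 CPM in Morc2b-/- (SD, n = 4 each), a log2 fold change of -4.09 (SE 1.21) with an adjusted p of 0.9998 in edgeR's quasi-likelihood test. Other cell types were also uneven, with germ cell genes summing to 725 to 1071 CPM and Leydig cell genes to 119 to 650 CPM over the 8 libraries.

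The neutrophil promoters are shown first because these 4 genes peaked in 2 libraries and in unequal proportions, Ngp in only 1 of them. PU.1 and the C/EBP factors are the transcription factors best known for switching on myeloid genes, PU.1 in macrophages and neutrophils alike and C/EBP factors chiefly in granulocytes. The RefSeq promoter table had an entry for 8 of the 10 genes, all but Csf1r and Adgre1. Each was found once in the mm9 assembly (NCBIM37), and the 250 bases before the RefSeq transcription start are printed 5′ to 3′ on the strand of the gene. Capitals mark a PU.1 core (GAGGAAG), a C/EBP site (TTGCNNAA) or a TATA box (TATAAA), each searched on both strands.
Ltf: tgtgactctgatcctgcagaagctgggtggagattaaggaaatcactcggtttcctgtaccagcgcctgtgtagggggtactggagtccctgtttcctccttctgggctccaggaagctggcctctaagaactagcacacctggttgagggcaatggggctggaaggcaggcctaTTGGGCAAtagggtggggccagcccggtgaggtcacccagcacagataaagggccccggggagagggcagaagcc
Lcn2: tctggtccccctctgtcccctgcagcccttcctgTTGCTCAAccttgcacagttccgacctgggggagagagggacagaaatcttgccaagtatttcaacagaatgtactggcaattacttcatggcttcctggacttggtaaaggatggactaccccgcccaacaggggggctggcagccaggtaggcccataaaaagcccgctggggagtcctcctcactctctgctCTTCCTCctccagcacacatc
Ngp: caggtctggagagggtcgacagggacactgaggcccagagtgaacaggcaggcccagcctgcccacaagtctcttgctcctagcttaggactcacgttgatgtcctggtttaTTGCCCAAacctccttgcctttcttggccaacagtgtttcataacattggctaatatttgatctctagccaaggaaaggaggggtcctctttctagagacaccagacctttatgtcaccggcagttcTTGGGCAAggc
S100a8: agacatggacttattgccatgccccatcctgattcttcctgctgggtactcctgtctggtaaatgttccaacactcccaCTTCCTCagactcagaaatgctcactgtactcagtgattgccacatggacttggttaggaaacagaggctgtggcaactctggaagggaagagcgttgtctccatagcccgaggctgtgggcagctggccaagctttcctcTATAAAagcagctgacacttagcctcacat

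The Ltf sequence lies at chr9:110921546-110921795 on the plus strand and holds a C/EBP match that begins 75 bases before the start. The Lcn2 sequence lies at chr2:32243260-32243509 on the minus strand, with a C/EBP match 216 bases and a PU.1 match 21 bases before the start. The Ngp sequence lies at chr9:110322062-110322311 on the plus strand and holds 2 C/EBP matches, at 138 and 11 bases before the start. The S100a8 sequence lies at chr3:90472743-90472992 on the plus strand, with a PU.1 match at 171 bases and a TATA box at 30 bases before the start. C/EBP letters were thus present in the 3 granule protein promoters and not in that of S100a8. Among the macrophage genes, Mrc1 held 2 PU.1 matches (168 and 36 bases before the start) and Cd68 a C/EBP match (43 bases), and the Cd163 and Lyz2 windows held none of the 3 motifs. Of 27025 promoters searched over the same 300 bases (250 before and 50 after the start), 13.5% held the PU.1 core, 10.8% the C/EBP site and 14.2% the TATA box. A match is a description of these letters and not a measured binding site.

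Csf1r encodes the receptor for the growth factors CSF1 and IL-34 and has 22 exons at chr18:61265226-61291803, plus strand. Csf1r was at 50.7, 41.2, 50.1 and 48.3 CPM in wild type replicates 1 to 4 and at 54.6, 41.1, 39.0 and 42.8 CPM in Morc2b-/- replicates 1 to 4. The groups overlapped, and Csf1r was lowest in the library labelled Morc2b-/- replicate 3. Its log2 fold change, Morc2b-/- over wild type, was -0.10 (SE 0.12, 95% interval -0.36 to 0.16, edgeR adjusted p = 0.9998). Csf1r overlaps Hmgxb3 on the opposite strand, and the strand setting of the counting is not given in the sources used here, so reads of the pair may not be separated.

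Adgre1 encodes F4/80, the surface receptor by which mouse macrophages are usually recognised, and has 23 exons at chr17:57498109-57622952, plus strand. Adgre1 was at 16.7, 14.5, 16.0 and 16.7 CPM in wild type and at 20.9, 13.5, 13.7 and 13.2 CPM in Morc2b-/-. Morc2b-/- replicate 1 was above every other library, while the other Morc2b-/- libraries were below every wild type library. The log2 fold change was -0.060 (SE 0.16, 95% interval -0.41 to 0.29).

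Mrc1 encodes the mannose receptor CD206, an endocytic receptor of tissue macrophages, with 30 exons at chr2:14151041-14253684, plus strand, where the microRNA gene Mir511 lies inside it. Mrc1 was at 88.4, 69.9, 79.7 and 109 CPM in wild type and at 86.9, 67.6, 71.9 and 98.5 CPM in Morc2b-/-. Its highest library was wild type replicate 4 and its lowest Morc2b-/- replicate 2, and the genotypes overlapped along most of their ranges. The log2 fold change was -0.095 (SE 0.16, 95% interval -0.45 to 0.26).

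Lyz2 encodes lysozyme M, a bacteriolytic enzyme of macrophages that neutrophils also carry in their granules, with 4 exons at chr10:116714390-116719377, minus strand. Lyz2 was at 75.8, 71.3, 56.1 and 77.8 CPM in wild type and at 95.9, 65.5, 53.1 and 63.5 CPM in Morc2b-/-. The 2 lowest libraries were those labelled replicate 3 of either genotype. The log2 fold change was -0.017 (SE 0.18, 95% interval -0.42 to 0.38). Lyz2 thus did not follow the neutrophil genes, since its level in the library labelled Morc2b-/- replicate 3 was the lowest of 8. Its near copy Lyz1, the lysozyme of Paneth cells, stood at 0.147 to 0.481 CPM.

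Cd68 encodes macrosialin, a heavily glycosylated protein of the lysosome membrane, with 6 exons at chr11:69477715-69479655, minus strand. Cd68 was at 3.92, 3.19, 3.61 and 4.09 CPM in wild type and at 4.17, 2.97, 2.92 and 3.16 CPM in Morc2b-/-. The log2 fold change was -0.16 (SE 0.17, 95% interval -0.54 to 0.21). Genes with 2 listed transcripts lose reads in these tables, because a read that falls on more than 1 listed transcript is set aside, and Cd68 has 2 listed transcripts of which 1 received counts. Its values are therefore comparable between libraries but not with the level of another gene. Cd163, the scavenger receptor for haemoglobin (17 exons, chr6:124254669-124280545, plus strand), has the same difficulty. It had 2, 0, 0 and 1 counts in wild type and 0, 3, 2 and 0 counts in Morc2b-/-, 8 counts in all, which is not a measurement of its expression.

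The 5 measured macrophage genes all had a log2 fold change below 0, with a median of -0.095, whereas the median over the 13507 tested genes was 0.0022. None of the 5 passed the test. No gene among all 13507 did (0%), while 249 genes (1.84%) had an unadjusted p under 0.05, a group that held no macrophage gene. DESeq2, run as an alternative, called 1 gene of all, Pkmyt1. The genotypes overlapped for each of the 5 macrophage genes and for Lcn2, as they did for all but 1.29% of tested genes. The intervals place any change of Csf1r between -0.36 and 0.16 on the log2 scale, and those of the other 4 reach no further than -0.54 or 0.38. In whole testis a lower level could mean fewer cells or less RNA per cell, and these cannot be told apart.

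**Figure D1:**
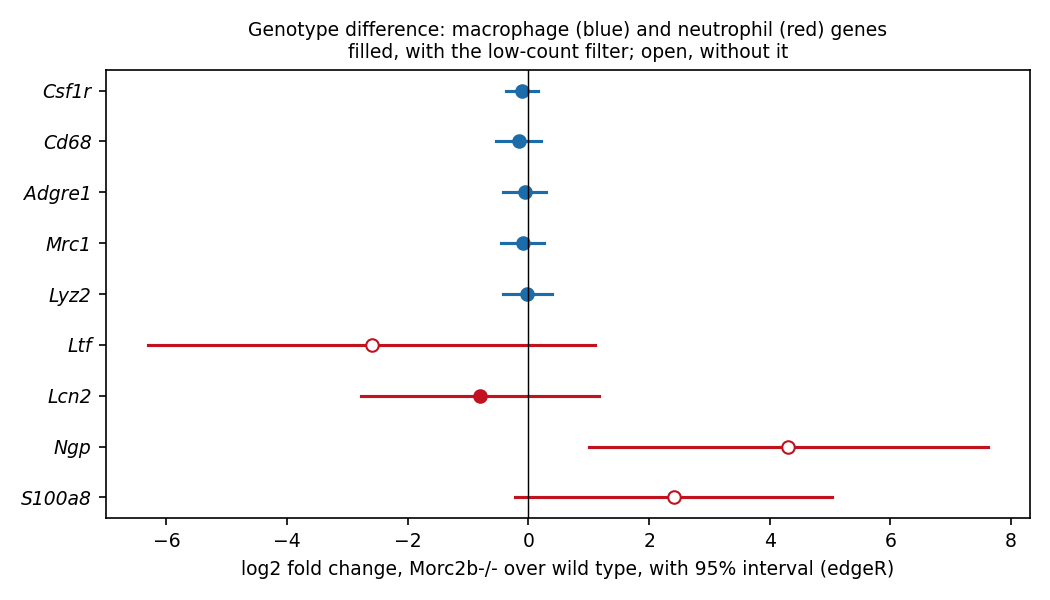
Log2 fold change of each gene, Morc2b-/- over wild type (points), with its 95% interval (lines), for 5 macrophage genes (blue) and 4 neutrophil genes (red). The macrophage intervals lie within -0.54 and 0.38, and the neutrophil intervals span from -6.30 to 7.61.

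Among themselves the macrophage genes differed in level. Per kilobase of exon, Lyz2 was at 53.2 ± 10.4 CPM, Mrc1 at 14.1 ± 2.45 CPM, Csf1r at 8.80 ± 1.08 CPM and Adgre1 at 4.82 ± 0.787 CPM (SD, n = 8 libraries), and each neighbouring pair in this order was separated by more than its spread. The lengths joined all GENCODE exons of a gene, so a level is understated where the counted RefSeq transcript is shorter. The coefficient of variation (CV, the SD over the mean) across the 8 libraries was 12.3% for Csf1r, 14.5% for Cd68, 16.3% for Adgre1, 17.3% for Mrc1 and 19.6% for Lyz2. For comparison, the median CV of tested genes was 13.4%, with 5.21% and 37.1% at the 10th and the 90th percentile. Counting error accounts for a CV of 1.93% in Mrc1 and 2.61% in Csf1r, and for 9.45% in Cd68. Morc2b-/- replicate 1 was the highest library for Csf1r, Cd68, Adgre1 and Lyz2, and the library labelled Morc2b-/- replicate 3 was the lowest for Csf1r, Cd68 and Lyz2. Mrc1 had neither its highest nor its lowest value in these libraries.

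**Figure D2:**
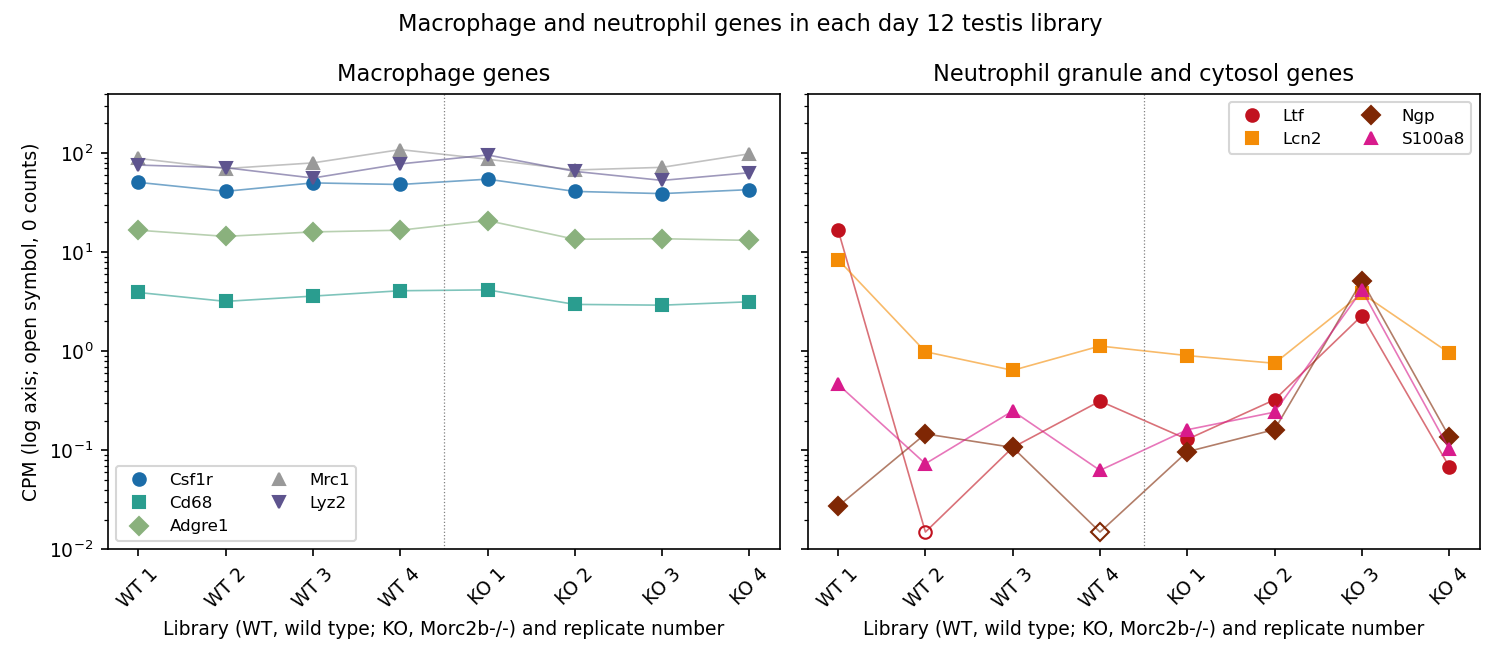
CPM (log axis) of 5 macrophage genes (left) and 4 neutrophil genes (right) in each of 8 libraries, with 1 symbol per gene and open symbols for 0 counts. The macrophage lines are nearly level, whereas the neutrophil lines peak at WT 1 (Ltf 16.7 and Lcn2 8.42 CPM) and KO 3 (Ngp 5.16 and S100a8 4.15 CPM).

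Lactotransferrin, the product of Ltf, binds iron and is stored in the secondary granules of neutrophils, but glandular epithelia also secrete it. Ltf (17 exons, chr9:110921796-110945270, plus strand) had 614, 0, 3 and 10 counts in wild type and 4, 12, 80 and 2 counts in Morc2b-/-. Wild type replicate 1 was at 16.7 CPM (95% exact binomial interval 15.4 to 18.1), and the library labelled Morc2b-/- replicate 3 was at 2.29 CPM (1.82 to 2.85). The other 6 libraries ran from 0 to 0.325 CPM. These intervals, and the others on counts below, cover counting error only. The 0 counts in wild type replicate 2 allow a level of up to 0.110 CPM, taking 3 counts as the limit. Wild type replicate 1 alone carried 97.5% of the summed wild type level, and replicate 3 carried 81.4% of the Morc2b-/- level.

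Lipocalin 2, the product of Lcn2, captures bacterial siderophores and is likewise shared between secondary granules and many epithelia, which release it under stress. Lcn2 (6 exons, chr2:32240153-32243317, minus strand) was at 8.42, 0.990, 0.643 and 1.13 CPM in wild type and at 0.905, 0.757, 3.84 and 0.963 CPM in Morc2b-/-. The same 2 libraries stood out, and the other 6 lay within 0.643 to 1.13 CPM. Lcn2 was the only neutrophil gene whose counts were above 10 in each library, with 18 to 309 counts, and the only one that passed the low-count filter. The 6 libraries thus had a measurable floor of Lcn2 that Ltf did not share.

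Ngp encodes neutrophilic granule protein, a cathelicidin relative made by maturing neutrophils in the marrow, with 4 exons at chr9:110322254-110325514, plus strand. Ngp had 1, 4, 3 and 0 counts in wild type and 3, 6, 180 and 4 counts in Morc2b-/-. The library labelled Morc2b-/- replicate 3 was at 5.16 CPM (95% interval 4.43 to 5.97), against 0 to 0.162 CPM in the other 7. Wild type replicate 1, the highest library for Ltf, was at 0.0273 CPM (0.00069 to 0.152), which is 1 read. The 0 counts of wild type replicate 4 allow up to 0.0943 CPM.

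S100a8 encodes a small calcium-binding protein that makes up, with S100A9, much of the neutrophil cytosol, and has 3 exons at chr3:90472993-90473956, plus strand. S100a8 had 17, 2, 7 and 2 counts in wild type and 5, 9, 145 and 3 counts in Morc2b-/-. The library labelled Morc2b-/- replicate 3 was at 4.15 CPM (95% interval 3.51 to 4.89). Wild type replicate 1 came next at 0.463 CPM (0.270 to 0.742). Its partner S100a9 has 2 listed transcripts and stood at 0 counts in all libraries, including the one with 145 counts of S100a8, so that 0 was not taken as a level.

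Lcn2, tested with the low-count filter, had a log2 fold change of -0.80 (SE 0.88, 95% interval -2.77 to 1.18, edgeR adjusted p = 0.9998). Ltf, Ngp and S100a8 could be tested only without the filter, where 20113 genes entered and 422 (2.1%) had an unadjusted p under 0.05. There Ltf had a log2 fold change of -2.60 (SE 1.66, 95% interval -6.30 to 1.11) and S100a8 one of 2.41 (SE 1.18, 95% interval -0.22 to 5.04), both with an adjusted p of 0.9989. Ngp had a log2 fold change of 4.30 (SE 1.48, 95% interval 1.00 to 7.61), with an unadjusted p of 0.016 and an adjusted p of 0.9989. The Ngp difference rested on 1 library: without Morc2b-/- replicate 3 it was 0.95. Without that library S100a8 was at -0.33, and without wild type replicate 1 Ltf turned to 2.26 and Lcn2 to 0.81. The direction of Ltf, Lcn2 and S100a8 between the genotypes therefore depended on 1 library each.

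How often a single library stands apart in this way was counted over all genes. Of 17131 genes with 10 or more counts, 8.56% had a wild type library apart from the other 3, by the 95% critical value of Dixon's ratio for 4 samples, and 8.88% had such a Morc2b-/- library. In wild type this held for Ltf and Lcn2 and for no macrophage gene. In Morc2b-/- it held for each of the 4 neutrophil genes, always through replicate 3, and for Adgre1 through replicate 1. The CV across the 8 libraries was 232% for Ltf, 123% for Lcn2, 245% for Ngp and 204% for S100a8.

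**Figure D3:**
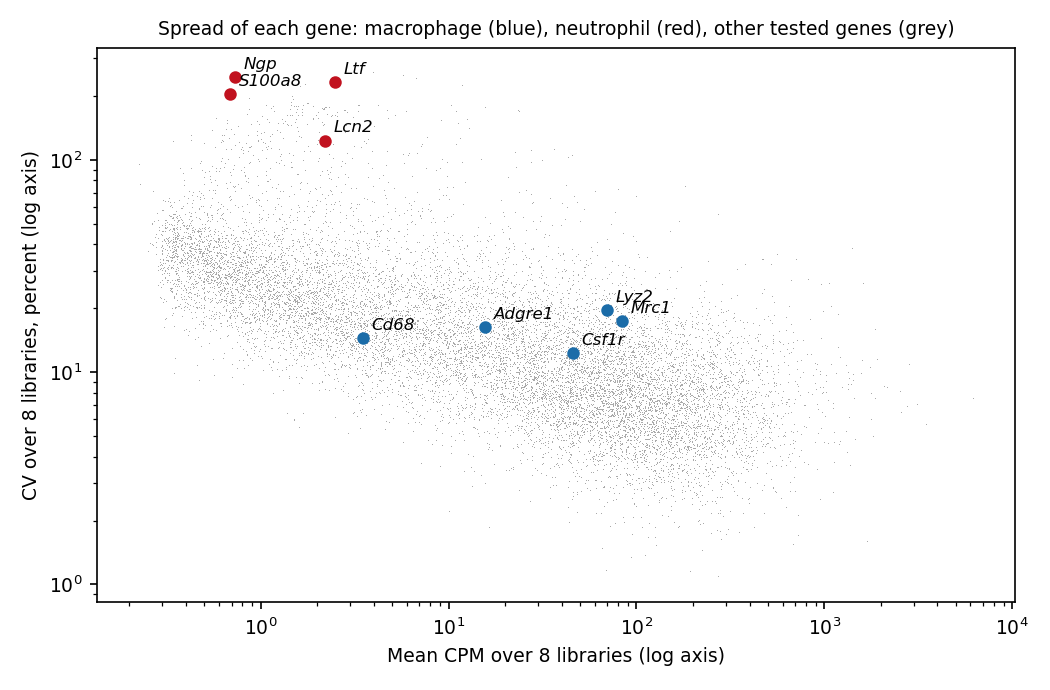
CV over 8 libraries against mean CPM (both log axes) for tested genes (grey), 5 macrophage genes (blue) and 4 neutrophil genes (red). The macrophage genes lie within the grey cloud at 12.3 to 19.6%, and the neutrophil genes lie at 123 to 245%.

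The summed levels show the same contrast in each animal. The 6 macrophage genes summed to 236, 200, 206 and 256 CPM in wild type and to 262, 191, 181 and 221 CPM in Morc2b-/-. The means were 224 ± 26.1 CPM and 214 ± 36.7 CPM (SD, n = 4 each). The 4 neutrophil genes summed to 25.7, 1.21, 1.11 and 1.51 CPM in wild type and to 1.29, 1.49, 15.4 and 1.27 CPM in Morc2b-/-. Outside the 2 high libraries the neutrophil sum varied by 1.36 times and the macrophage sum by 1.38 times, over 6 libraries that were picked for having no neutrophil peak. Over all 8 the neutrophil sum varied by 23.2 times and the macrophage sum by 1.45 times.

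Set against the macrophage sum of the same library, the neutrophil sum was 10.9%, 0.605%, 0.539% and 0.590% in wild type and 0.493%, 0.780%, 8.54% and 0.575% in Morc2b-/-. The mean was 3.15 ± 5.15% in wild type and 2.60 ± 3.97% in Morc2b-/- (SD, n = 4 each), so each SD exceeded its mean. The log2 difference between the genotypes was -0.077 for the macrophage sum, -0.11 for the neutrophil sum and -0.037 for their ratio. Without wild type replicate 1 the neutrophil sum was at 0.97 and the ratio at 1.02, and without Morc2b-/- replicate 3 both were at -0.99, so their direction depended on those libraries. The macrophage sum ran from -0.18 to -0.0014 when 1 library was left out. No test was made of these sums, whose members were chosen. The make-up of the neutrophil sum differed between the 2 high libraries. Ngp and S100a8 contributed 1.91% of it in wild type replicate 1 and 60.3% in the library labelled Morc2b-/- replicate 3, with 4.17 to 32.3% in the other 6.

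**Figure D4:**
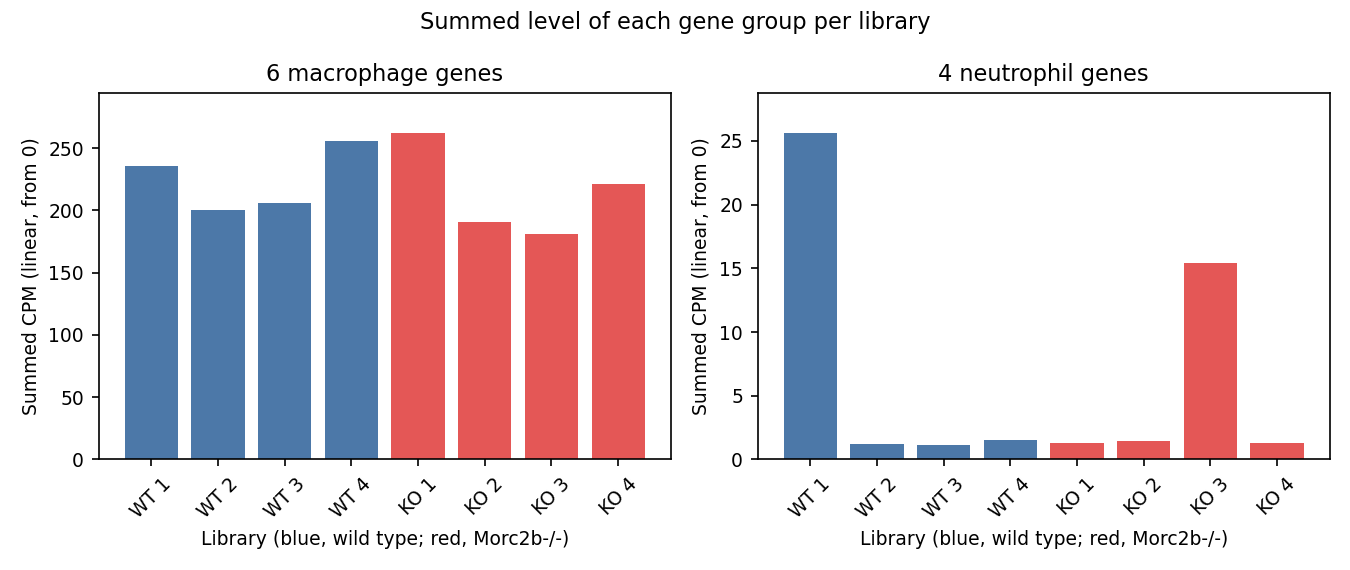
Summed CPM (linear axes from 0) of the 6 macrophage genes (left) and the 4 neutrophil genes (right) in each library, wild type in blue and Morc2b-/- in red. The macrophage bars run from 181 to 262 CPM, and 2 neutrophil bars, at 25.7 and 15.4 CPM, rise above 6 bars of 1.11 to 1.51 CPM.

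Each high library was then compared with the pooled other 6. In wild type replicate 1, Ltf was 99.4-fold above them (95% counting interval 69.3 to 148), Lcn2 9.40-fold (7.75 to 11.4) and S100a8 3.05-fold (1.56 to 5.76), while the ratio for Ngp was 0.251 (0.0061 to 1.57) from 1 read. In the library labelled Morc2b-/- replicate 3, Ngp was 47.5-fold above the pool (29.8 to 79.6), S100a8 27.3-fold (18.1 to 42.5), Ltf 13.6-fold (8.89 to 21.3) and Lcn2 4.28-fold (3.38 to 5.41). The order of the 4 genes was thus not the same in the 2 libraries. No macrophage gene passed 2-fold in either library, with medians of 1.06 and 0.844. Over all genes with 10 or more counts, 7.98% passed 2-fold in wild type replicate 1 and 6.61% in the library labelled Morc2b-/- replicate 3.

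Some other neutrophil genes moved with Ngp in the library labelled Morc2b-/- replicate 3, as far as their low counts allow. The primary granule gene of proteinase 3 (Prtn3) did not, with a ratio of 0.987 to the pooled 6 there (counting interval 0.749 to 1.28). Myeloperoxidase (Mpo), the oxidant-making enzyme of primary granules, had 50 counts there and 3 to 9 in the other 7 libraries, an 8.24-fold ratio to the pooled 6 (5.18 to 13.3). Neutrophil elastase (Elane) had 7 counts against 0 to 2. The stefin Stfa1, a cysteine protease inhibitor, had 23 counts against 0 to 3, and the integrin subunit gene Itgb2l had 8 against 0 to 3. In wild type replicate 1, Mpo had 7 counts, Elane 1 and Stfa1 0, so none of the 3 stood apart. Of 8 further neutrophil genes with 10 or more counts in all, 6 passed 2-fold in the library labelled Morc2b-/- replicate 3. An interval above 1 held for 3 of the 6, and in wild type replicate 1 only 1 gene passed. Over all genes with 10 or more counts the shares were 6.61% and 7.98%. The limit of 10 counts included the high library, so genes high only there could enter. Stfa1, Itgb2l, Stfa2l1 and Stfa2 had 4, 6, 7 and 8 counts in the pooled 6. The 6 of 8 therefore does not measure how widely neutrophil genes rose.

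Camp, the cathelicidin of secondary granules, which was picked out after its values were seen, was highest in the same 2 libraries. It had 57, 21, 40 and 2 counts in wild type and 1, 3, 83 and 4 in Morc2b-/-. It was 6.17-fold above the pooled 6 in the library labelled Morc2b-/- replicate 3 (95% counting interval 4.44 to 8.59) and 4.03-fold in wild type replicate 1 (2.79 to 5.79). Its counts were also above those of the other 4 libraries in wild type replicates 2 and 3, which had 4 and 3 counts of Ngp. Prtn3 ran from 1.35 to 2.59 CPM and was 1.33-fold above the pooled 6 in wild type replicate 1 (1.05 to 1.67). Gelatinase B (Mmp9) ran from 3.54 to 6.13 CPM and was 1.44-fold above them in the library labelled Morc2b-/- replicate 3 (1.23 to 1.67). The histone-citrullinating enzyme Padi4, at 1.51 to 2.17 CPM, stood apart in neither. Mcemp1, a membrane protein gene of mast cells and myeloid cells, had 0 to 12 counts. The primary granule genes summed to 2.86 CPM in wild type replicate 1, 3.72 CPM in the library labelled Morc2b-/- replicate 3 and 1.57 to 2.82 CPM in the other 6.

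Markers of other tissues were also uneven, and their part in the neutrophil values was not tested. Of 9 epididymal genes with 10 or more counts, 6 exceeded 2-fold in wild type replicate 1 and 0 in the library labelled Morc2b-/- replicate 3. Over all genes with 10 or more counts the shares were 7.98% and 6.61%. The limit of 10 counts included the high library. The epididymal list summed to 279 CPM in wild type replicate 1 against 17.2 to 31.8 CPM in the other 7. Crisp1, a sperm-coating protein gene of the epididymis, had 3096, 2, 0 and 1 counts in wild type and 1, 212, 9 and 0 in Morc2b-/-. The protease inhibitor gene Spink8 had 4329, 5, 0 and 5 counts in wild type and 7, 224, 10 and 3 in Morc2b-/-. Wild type replicate 1 was the highest library for both, as for Ltf, and Morc2b-/- replicate 2, with 12 Ltf counts (0.325 CPM), was the second highest for both. Wild type replicate 4, with 10 Ltf counts (0.314 CPM), had only 1 count of Crisp1 and 5 of Spink8. The library labelled Morc2b-/- replicate 3, with 80 Ltf counts, had 9 and 10 counts of them. Those are ratios of 0.220 and 0.216 to the pooled 6, but 212 and 224 of the pooled counts came from Morc2b-/- replicate 2, and the remaining 5 libraries had at most 2 and 7 counts. Lcn5, Lcn9, Rnase9 and Rnase10, also on the list, had fewer than 10 counts in all.

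Epithelial genes showed a narrower version of this. Their list summed to 34.6 CPM in wild type replicate 1, 23.2 CPM in the library labelled Morc2b-/- replicate 3 and 14.9 to 23.5 CPM in the other 6. The keratin genes Krt19 and Krt7, chosen after their values were seen, were 53.4-fold and 7.61-fold above the pooled 6 in wild type replicate 1 and 1.06-fold and 1.67-fold in the library labelled Morc2b-/- replicate 3. Acta2, the smooth muscle actin gene, was at 1345 CPM in wild type replicate 1 and at 670 to 849 CPM elsewhere. The kidney and duct factor Pax2 was 2.12-fold above the pool, whereas Wfdc2 (0.864) and Muc1 (1.03) were not.

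Blood was followed through red cell and platelet genes. Globin genes had fewer than 10 counts, and these were not read as levels because near-identical copies share reads. The anion exchanger Slc4a1 had 182 counts in wild type replicate 1, 24 in the library labelled Morc2b-/- replicate 3 and 6 to 20 in the other 6. The red cell list summed to 6.08 CPM in wild type replicate 1, 1.18 CPM in the library labelled Morc2b-/- replicate 3 and 0.536 to 1.14 CPM in the other 6. The platelet list, led by Pf4, summed to 10.9 to 15.4 CPM over the 8 libraries. Red cell genes were therefore highest in the library with 1 count of Ngp, and not in the one with 180. The part of blood in the neutrophil values was not tested.

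Spermatid genes, a list that was added after its values were seen, were high in both libraries. The transition protein gene Tnp1 had 1942, 19, 36 and 24 counts in wild type and 183, 491, 3884 and 21 in Morc2b-/-. The list of Tnp1, Tnp2, Prm1 and Prm2, which package sperm DNA, summed to 142 CPM in wild type replicate 1, 289 CPM in the library labelled Morc2b-/- replicate 3 and 0.722 to 31.4 CPM in the other 6. These genes are normally made long after day 12. Both libraries with high neutrophil genes were thus also the 2 highest for spermatid genes, and this was not tested further.

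**Figure D5:**
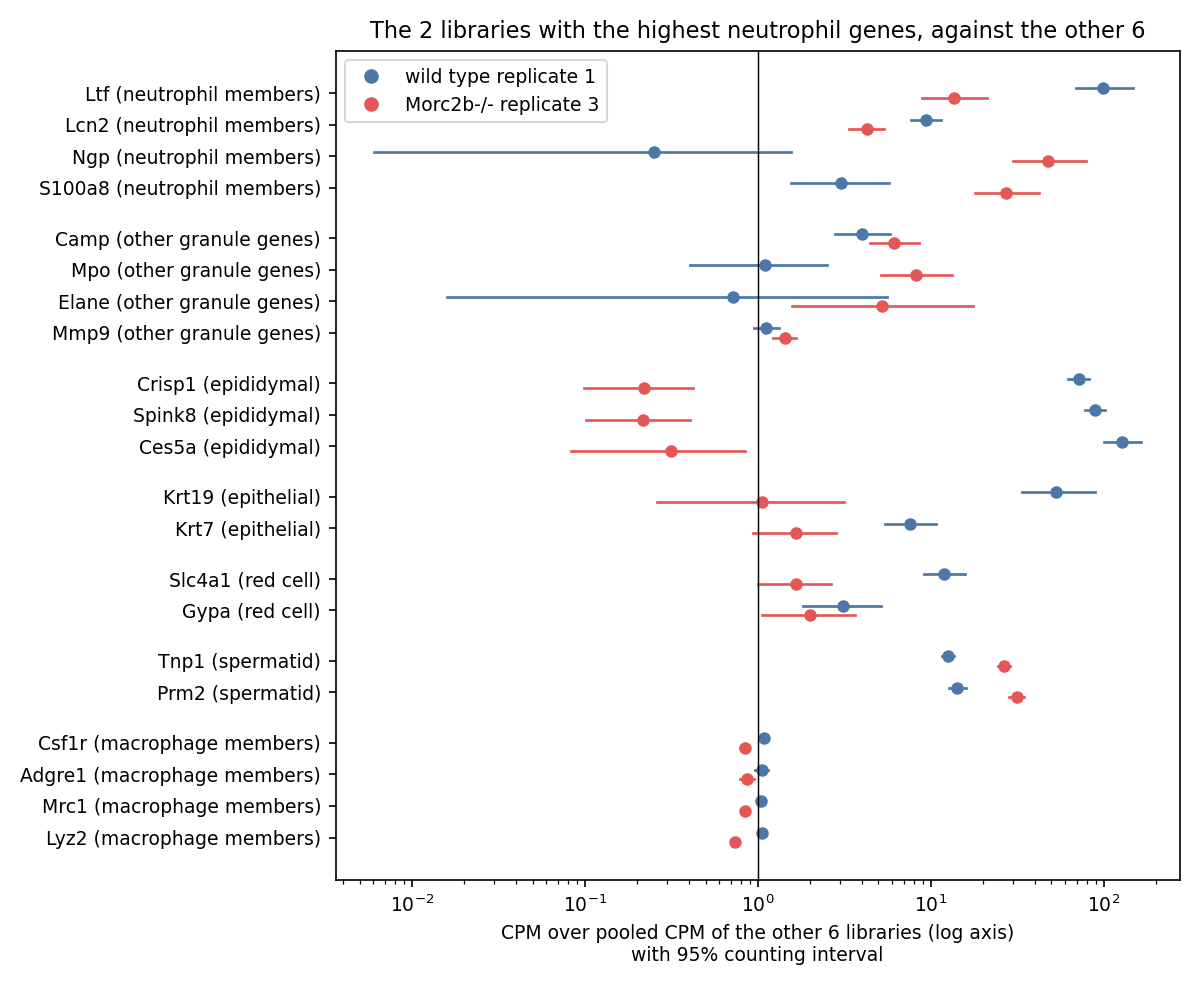
CPM of 21 genes in wild type replicate 1 (blue) and in the library labelled Morc2b-/- replicate 3 (red) over the pooled CPM of the other 6 libraries (log axis), with 95% counting intervals. Epididymal genes are high in blue only (Crisp1 71.9), and Ngp and Mpo in red only (Ngp 47.5, Mpo 8.24). S100a8 is higher in red (27.3) than in blue (3.05). Spermatid genes are high in both (Tnp1 12.6 and 26.5), and macrophage genes in neither.

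Growth factors and chemokines for these cells had few counts. Csf1, which keeps macrophages alive, had 12, 8, 7 and 8 counts in wild type and 4, 7, 5 and 6 in Morc2b-/-. Csf3, which drives neutrophil production, had 12, 3, 8 and 8 counts in wild type and 4, 10, 7 and 7 in Morc2b-/-. The neutrophil attractant Cxcl1 had 25, 8, 25 and 26 counts in wild type and 30, 30, 11 and 27 in Morc2b-/-, and Cxcl2 had 0 to 3 counts. The library with the highest Ngp had 11 counts of Cxcl1, a ratio of 0.397 to the pooled 6 (95% counting interval 0.194 to 0.732). Lrg1, an acute-phase gene that was picked out after its values were seen, was 5.44-fold above the pooled 6 in wild type replicate 1 (2.29 to 13, from 13 counts) and 2.64-fold in the library labelled Morc2b-/- replicate 3 (0.812 to 7.59). Il34 was at 0 counts in all libraries, with more than 1 transcript listed. The cytokine feedback gene Socs3 was at 5.66 to 9.36 CPM, and the acute-phase gene Saa3 at 0 to 0.770 CPM. No gene of the chemokine and acute-phase list passed the test.

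Further macrophage genes were spread evenly around 0. Of 18 tested, 9 had a log2 fold change above 0 and 9 below, with a median of -0.0016, and none passed the test. Mertk, a receptor for the uptake of dying cells that Sertoli cells also use, was at 93.3 CPM in wild type and 92.4 CPM in Morc2b-/- on average. The scavenger receptor Stab1 was at 47.4 and 40.5 CPM, and the complement subunit C1qb at 28.3 and 28.2 CPM. Aif1 (Iba1), noticed after its values were seen, was the only gene of this list over 2-fold in either high library, at 2.38-fold in wild type replicate 1 and 3.47-fold in the library labelled Morc2b-/- replicate 3. The transcription factor gene Maf, at 26.2 and 29.0 CPM, and the PU.1 gene Spi1, at 2.24 and 2.30 CPM, did not pass the test either.

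The class II genes that macrophages and dendritic cells use to present antigen had a median log2 fold change of -0.15 over 6 tested genes, 5 of them below 0, with none past the test. H2-Ab1 averaged 14.7 CPM in wild type and 14.1 CPM in Morc2b-/-, H2-Aa 12.1 and 10.4 CPM and H2-Eb1 8.83 and 8.17 CPM. Of the leukocyte genes, Laptm5 averaged 23.0 and 20.9 CPM and Cd53 6.02 and 6.26 CPM. Itgb2, the common chain of the leukocyte integrins, was the only gene of all these lists that passed the low-count filter and had an unadjusted p under 0.05 (0.021), at 4.65 and 3.57 CPM, a log2 fold change of -0.38 (SE 0.14), and its adjusted p in edgeR was 0.9998. Lymphocyte genes summed to 10.5 to 15.3 CPM and mast cell, basophil and eosinophil genes to 0.928 to 2.52 CPM.

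Among the genes whose levels most resembled the macrophage mean over the 8 libraries were Icam2 (Pearson r = 0.91 on log2 CPM), Pvt1 (0.91), S100a10 (0.91) and Fiz1 (0.90), out of 13501 genes compared. That mean included Cd163, with 0 to 3 counts a library, so counting error in Cd163 entered this ranking. The genes that most resembled the neutrophil mean were 4930505A04Rik (0.99), Dbil5 (0.99), Fam209 (0.99), Atp6ap1l (0.98) and Spata20 (0.98). None of these 5 was on a neutrophil list. Dbil5, for example, was at 20.0 CPM in wild type replicate 1, 37.3 CPM in the library labelled Morc2b-/- replicate 3 and 5.05 to 8.17 CPM in the other 6. For Ngp alone, among 15446 genes and as a choice made after its values were seen, the closest were the stefin-family gene Cstdc5 (0.97) and Chil3 (0.95), a chitinase-like gene of myeloid cells, at 0.745 and 0.917 CPM in the library labelled Morc2b-/- replicate 3 and at most 0.0367 CPM in any other. With 8 libraries and 2 of them far from the rest, these coefficients are descriptions that rest on those 2.

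Per kilobase of exon, and in the 6 libraries without a peak, the neutrophil genes had median levels of 0.406 CPM for Lcn2, 0.338 CPM for S100a8, 0.101 CPM for Ngp and 0.0431 CPM for Ltf. The SDs over those 6 were 0.0758, 0.212, 0.0481 and 0.0485 CPM. On this scale Lcn2 and S100a8 did not differ beyond their spread, nor did Ngp and Ltf. The length joined all GENCODE exons of a gene (2302 bases for Lcn2), whereas the counts were those of 1 RefSeq transcript. A level is understated where that transcript is shorter, so the order of these genes is uncertain. The lowest macrophage level on this scale, that of Adgre1, was 4.70 CPM in the same 6 libraries.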

How the data were processed

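RNA-seq libraries (TruSeq Stranded mRNA, NextSeq 500) of 8 testis samples, 4 labelled wild type and 4 labelled Morc2b-/-, had been sequenced in 1 pool. The authors mapped reads with Tophat to mm9. The deposited values are raw read counts, 1 table a sample, with a row for each RefSeq transcript. The submitters' processing notes also name Cufflinks and Cuffdiff, whose values were not used here. Which program counted the reads, with which strand option and from which annotation release is not given in the sources used here. Reads on more than 1 transcript (26.8 to 28.9% of uniquely aligned reads) and on none (20.7 to 26.5%) are tallied apart and are in no gene's count.

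Of 35819 transcripts, 35522 were matched to a symbol and summed to genes, and the 297 others were kept as units of their own, 24651 in all. Genotypes were compared in edgeR 4.0.16 (R 4.3.3) with TMM normalization, filterByExpr and the quasi-likelihood F test, with genotype alone in the model and Benjamini-Hochberg adjustment at 0.05. CPM is TMM-scaled. DESeq2 1.42.0, limma-voom (limma 3.58.1), other normalizations and filters, a replicate block and leaving out each library were alternatives. The code was tested on simulated data. No 2 libraries agreed within counting error (chi-square per degree of freedom of 6.86 or more over 28 pairs). Count intervals are exact at 95%, and the limit of a 0 count is 3 counts. That the samples were separate animals comes from the methods' pairs of testes.

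The genes and lists were chosen with earlier results of these data known. Named genes were the 10, Morc2b, the ligands Csf1, Il34 and Csf3, the chemokines Cxcl1 and Cxcl2, the 3 most abundant genes of each list, any list gene with an unadjusted p under 0.05, and the 5 genes most like each group's mean log2 CPM (prior count 2). Others were named after their values were seen. Some genes that this rule names are not reported here. Coordinates are NCBIM37 with GENCODE gene models.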

Additional observations from a re-analysis of the deposited data

Results flagged for a closer look

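In groups of 4 libraries, 1 library was far from the other 3 for 11 of 24 combinations of genotype and gene or sum examined. The nominal rate of 1 in 20 holds for independent, normally distributed values, which these are not known to be. Wild type replicate 1 stood apart for Ltf (16.7 CPM), Lcn2 (8.42 CPM), the neutrophil sum (25.7 CPM) and the neutrophil sum as a share of the macrophage sum (10.9%). The library labelled Morc2b-/- replicate 3 stood apart for Ltf (2.29 CPM), Lcn2 (3.84 CPM), Ngp (5.16 CPM), S100a8 (4.15 CPM), the neutrophil sum (15.4 CPM) and its share of the macrophage sum (8.54%). Morc2b-/- replicate 1 stood apart for Adgre1 alone (20.9 CPM). The sums and shares hold the same genes and are not separate evidence. Over all genes with 10 or more counts, 8.56% had a wild type library and 8.88% a Morc2b-/- library as far apart.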

How the results depend on the processing

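Of 147 fitted values of the 9 genes (all but Cd163) under alternatives, 143 had an adjusted p, of which 0 passed the threshold and the lowest was 0.985. The other 4 were Ltf, Lcn2, Ngp and S100a8 under DESeq2, which gave them no p, so they were not tested there. DESeq2 called 1 gene of all, Pkmyt1, where edgeR called 0, and the number of genes with an unadjusted p under 0.05 ran from 204 to 572 over the settings. The direction was less firm than the calls. Leaving out wild type replicate 1 and Morc2b-/- replicate 3 together, an alternative chosen after seeing the data, moved the log2 fold change of Adgre1 to 0.0077, of Lyz2 to 0.13 and of Ltf to 0.30. Leaving out 1 library at a time gave -0.25 to 0.0039 for Adgre1, -0.20 to 0.030 for Mrc1, -0.21 to 0.092 for Lyz2, -4.55 to 2.26 for Ltf, -1.69 to 0.81 for Lcn2 and -0.33 to 3.16 for S100a8. The cause of these reversals was not tested, other than that Ltf and Lcn2 turned without wild type replicate 1 and S100a8 without Morc2b-/- replicate 3. Requiring 10 counts in every library left no value for Ltf, Ngp and S100a8. For the neutrophil sum the log2 difference of -0.11 became 1.65 without Ltf and Lcn2, 0.55 as a mean of centred values, and -0.99 to 0.97 when 1 library was left out. For its ratio to the macrophage sum, -0.037 became 1.73, 0.61 and -0.99 to 1.02.

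The replicate numbers were the same in both genotypes, and whether they pair the libraries is not known. Deviations of same-numbered libraries had correlations of -0.16, 0.24, -0.32 and 0.45 for numbers 1 to 4. Libraries with different numbers were not compared in this way, so these values do not decide the question. A fit with the replicate number as a block called 0 genes and gave 572 genes with an unadjusted p under 0.05. Its log2 fold changes were -0.25 for Ltf, -0.34 for Lcn2, 3.08 for Ngp and 1.36 for S100a8, and it changed no call. With the block the SE of Mrc1 went from 0.16 to 0.045, and that of Ltf from 1.66 to 2.33.

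Depth limits the neutrophil genes most. The limit of 3 counts corresponded to 0.0811 to 0.110 CPM, and Ltf, Ngp and S100a8 lay near or below it in several of the 6 low libraries.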
